A study of Mus musculus with 33 samples.

Results

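The Hoxc cluster was followed in bulk RNA sequencing of mouse embryonic stem cell cultures taken from paraxial mesoderm (PM) towards tendon or fibrocartilage. Its members were the genes whose symbol was Hoxc4, Hoxc5, Hoxc6, Hoxc8, Hoxc9, Hoxc10, Hoxc11, Hoxc12 or Hoxc13, and all 9 were among the 17120 genes of the count table. The 33 libraries formed 11 groups of 3 replicates. PM was collected as embryoid bodies after 6 days of differentiation, and the other groups were monolayers kept from then on with CD1530, which activates the gamma form of the retinoic acid receptor (RAR), or with AGN 193109 (AGN), which holds these receptors in an inactive state, for 0.25, 0.75, 1.5, 2.5 or 4 days (D0.25 to D4). Per the study's methods, both media also held TGFβ1, the Smoothened agonist SAG and FGF2, and the stem cells carried the ScxGFP reporter of the tendon factor Scleraxis. The methods describe an earlier step in which AGN or all-trans retinoic acid could be added before PM, and which of these preceded the sequenced PM was not given in the sources used here. Because PM and the later groups also differed in culture form and medium, time, plating and the factors shared by both media cannot be told apart in a comparison with PM; per the methods, the CD1530 and AGN media differed in the ligand alone.

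Hox genes encode homeodomain transcription factors that set position along the head-to-tail axis. In the embryo the genes at the 3′ end of a cluster, such as Hoxc4, are activated earlier and more anteriorly than those at the 5′ end, such as Hoxc13, an order called collinearity. Retinoic acid activates 3′ Hox genes through receptors that bind DNA as a complex of RAR and RXR, and Cdx factors and Polycomb proteins are among the other regulators of the clusters. In the trunk, Hoxc4, Hoxc5 and Hoxc6 belong to cervical to thoracic levels, Hoxc8 and Hoxc9 to thoracic levels, and Hoxc10 to Hoxc13 to lumbar, sacral and tail levels.

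In the GENCODE M21 annotation of GRCm38 the cluster covered 115.75 kb of chromosome 15, from 102921103 to 103036852, with every member on the plus strand. Hoxc13 began at 102921103 and Hoxc4, at the opposite end, ran from 103018934 to 103036852. The Hoxc5 gene model was unusually long, from 102967443 to 103017429, and spanned Hoxc6, Hoxc8, Hoxc9 and part of Hoxc10. It shared 166 exonic bases with Hoxc10, which is 5.37% of the exon bases of Hoxc5 and 8.70% of those of Hoxc10, and no other pair of members shared exonic bases. How the reads on these bases were assigned was not given in the sources used here. The lincRNA Hotair and the microRNAs Mir196a-2 and Mir615, which also lie in the cluster, were not analysed here.

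The members differ in the DNA that encodes the recognition helix of the homeodomain, the part that enters the major groove of DNA. The stretches that follow, 54 bases each and read 5′ to 3′ from GENCODE M21 transcripts on the plus strand of GRCm38, are shown for genes that stood apart in their time course: Hoxc4 at the 3′ end, Hoxc8 from the middle of the cluster, and the 5′ genes Hoxc12 and Hoxc13. Capitals mark bases that differ from Hoxc4.
Hoxc4, chr15:103035786-103035839: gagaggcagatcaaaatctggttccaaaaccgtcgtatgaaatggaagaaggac
Hoxc8, chr15:102992694-102992747: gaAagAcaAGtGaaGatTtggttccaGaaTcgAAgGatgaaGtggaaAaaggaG
Hoxc12, chr15:102938431-102938484: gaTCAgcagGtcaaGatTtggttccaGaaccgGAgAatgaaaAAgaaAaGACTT
Hoxc13, chr15:102927333-102927386: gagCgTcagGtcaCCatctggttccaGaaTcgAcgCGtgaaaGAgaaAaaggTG
Each of these lies in the last exon of its transcript. Hoxc8 and Hoxc13 differed from Hoxc4 at 15 of the 54 bases, and Hoxc12 at 18. These are counts of bases, and changes of amino acids, which can be fewer, were not counted. Over the whole homeobox of 180 bases, identity to Hoxc4 was 63.9% for Hoxc8, 52.8% for Hoxc13 and 51.1% for Hoxc12. Among the 8 members compared, all but Hoxc5, the longest exact stretch that a protein-coding transcript shared with one of any other Hox gene was 50 bases, between Hoxc9 and Hoxb9, and for the other 7 it was 18 to 28 bases. These stretches were shorter than the reads named in the study's methods.

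The promoter of Hoxc4 is shown because this gene had the largest difference between the ligands among the 9 members. RefSeq's table for GRCm38.p6 matched 1 of the 9 members, with a start that lies inside the longer GENCODE gene model. The 250 bases before that start follow, plus strand, 5′ to 3′. Capitals mark the hexamer AGGTCA and the related forms written AGTTCA, or else GGGTCA, or else GGTTCA, the core that RAR and RXR recognise in pairs, on either strand.
Hoxc4, chr15:103034145-103034394: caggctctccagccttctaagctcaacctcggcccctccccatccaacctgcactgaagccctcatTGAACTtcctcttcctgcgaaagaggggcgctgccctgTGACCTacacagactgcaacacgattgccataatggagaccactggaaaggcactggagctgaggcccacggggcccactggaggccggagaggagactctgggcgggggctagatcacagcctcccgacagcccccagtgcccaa
The window held 2 such hexamers, both on the minus strand, 1 of the form AGTTCA beginning 184 bases before the start and 1 of the form AGGTCA beginning 146 bases before it. At least 1 hexamer was found in 38.6% of 32851 promoter windows of this length. No direct repeat with a spacing of 1, 2 or 5 bases was found in the Hoxc4 window, and such repeats were in 0.164%, 0.174% and 0.0883% of all windows. No other part of the cluster was searched.

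Depth was 17116084 to 22775275 counts in 32 libraries and 38120841 counts in AGN D2.5 replicate 1, and the members were low: a single library held from 5 counts (Hoxc11 and Hoxc12) to 372 counts (Hoxc5). Levels are given in CPM, the counts scaled to a common library total (mean ± SD, n = 3), and changes as log2 fold changes with their SE from edgeR's quasi-likelihood test, called at a Benjamini-Hochberg adjusted p under 0.05 over all 17120 genes. Per the study's methods the replicates were biological; whether they came from separate differentiations was not given in the sources used here, and p-values measure the spread between these libraries. CD1530 D0.75 replicate 1 stood apart from its group, with a chi-square per gene of 20.6 and 21.9 against the other 2 libraries, which differed from each other by 2.33; in the other groups no pair was above 4.87. Calls that rest on this library are given with and without it. In bulk RNA, fewer cells expressing a gene and less RNA per cell cannot be told apart. PM carried high levels of pluripotency genes (Pou5f1 at 705 CPM and Nanog at 469 CPM) beside low levels of the paraxial mesoderm factors Tbx6 (9.61 CPM) and Msgn1 (3.40 CPM). The summed level of 4 pluripotency markers was 1814 to 1848 CPM in PM libraries, 860.2 to 940.7 CPM at D0.25 over both ligands, and at D4 107.3 to 113.9 CPM in CD1530 and 198.4 to 205.2 CPM in AGN. This sum was below PM at every later time. At D4 it was lower in CD1530 than in AGN, but single markers went both ways. Of the 4 markers, 2 were called higher and 1 lower in CD1530 then, beside 46.6% of all genes. At D0.75 the sum was higher in CD1530, at 888.2 to 931.6 CPM against 782.4 to 808.7 CPM in AGN. The part of pluripotent cells in the Hoxc changes was not tested.

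Hoxc4 ended highest in CD1530 and lowest in AGN. In PM its 3 libraries were at 3.51, 5.58 and 4.14 CPM. With CD1530 they were at 5.35, 4.49 and 5.76 CPM at D0.25, at 4.62, 5.40 and 5.53 CPM at D0.75 and at 5.84, 5.20 and 4.55 CPM at D1.5, a range that overlapped PM. Hoxc4 then rose to 14.2, 15.03 and 15.8 CPM at D2.5 and to 16.1, 17.4 and 19.3 CPM at D4, clear of every earlier library. With AGN the level started at 4.57, 4.43 and 4.93 CPM at D0.25 and was 3.44, 3.42 and 3.26 CPM at D0.75. It was 1.88, 2.49 and 2.05 CPM at D1.5, 1.15, 1.24 and 1.49 CPM at D2.5, and 0.903, 0.926 and 1.25 CPM at D4. From D0.75 on, no CD1530 library overlapped an AGN library of the same time. The log2 difference, CD1530 against AGN, was 0.61 ± 0.15 at D0.75 (adjusted p = 0.00225), 1.27 ± 0.16 at D1.5 (adjusted p = 4.41e-08), 3.53 ± 0.15 at D2.5 (adjusted p = 1.09e-22) and 4.05 ± 0.16 at D4 (adjusted p = 1.19e-23), the last a 16.6-fold difference. Against PM, Hoxc4 rose by 2.10 ± 0.12 in CD1530 at D4 (adjusted p = 2.56e-19) and fell by 1.95 ± 0.20 in AGN (adjusted p = 1.43e-11). No later group was kept without a ligand, so the difference between the ligands cannot be divided into a part from each. The D0.75 fall in AGN against PM (-0.42, adjusted p = 0.0138) was lost without PM replicate 2 (-0.23, adjusted p = 0.200).

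Hoxc5, the neighbour of Hoxc4 and, like it, a gene of cervical and upper thoracic levels, first fell under both ligands and then rose with CD1530. Its PM libraries were at 4.57, 5.20 and 4.90 CPM. At D0.25 it was at 0.727, 1.16 and 1.07 CPM with CD1530 and at 1.00, 1.02 and 1.05 CPM with AGN, a fall by 2.35 ± 0.19 (adjusted p = 1.73e-14) and by 2.30 ± 0.19 (adjusted p = 3.85e-14) on the log2 scale. This was the largest early change of any member, and the ligands did not separate (log2 difference -0.05 ± 0.25, adjusted p = 0.978). With CD1530 Hoxc5 then rose in each of the 4 intervals, through 2.26, 1.97 and 2.02 CPM at D0.75, 3.22, 2.88 and 3.39 CPM at D1.5 and 12.2, 12.1 and 13.3 CPM at D2.5, to 17.5, 17.1 and 18.5 CPM at D4. The steps were 1.08, 0.62, 2.03 and 0.59 on the log2 scale. With AGN the 12 libraries from D0.75 to D4 lay between 0.968 and 1.84 CPM, and none of the 4 intervals passed the test. The ligands differed by 0.59 ± 0.20 at D0.75 (adjusted p = 0.0388), 1.23 ± 0.19 at D1.5 (adjusted p = 2.23e-06), 3.22 ± 0.15 at D2.5 and 3.66 ± 0.15 at D4 (adjusted p = 4.87e-23), which is 12.7-fold. The D0.75 call was lost in 5 of 14 alternative analyses, 4 of which left out 1 library each (the log2 difference then being 0.47 to 0.60, and without CD1530 D0.75 replicate 1 0.53, adjusted p = 0.115), whereas the calls from D1.5 on held in all of them.

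**Figure D1:**
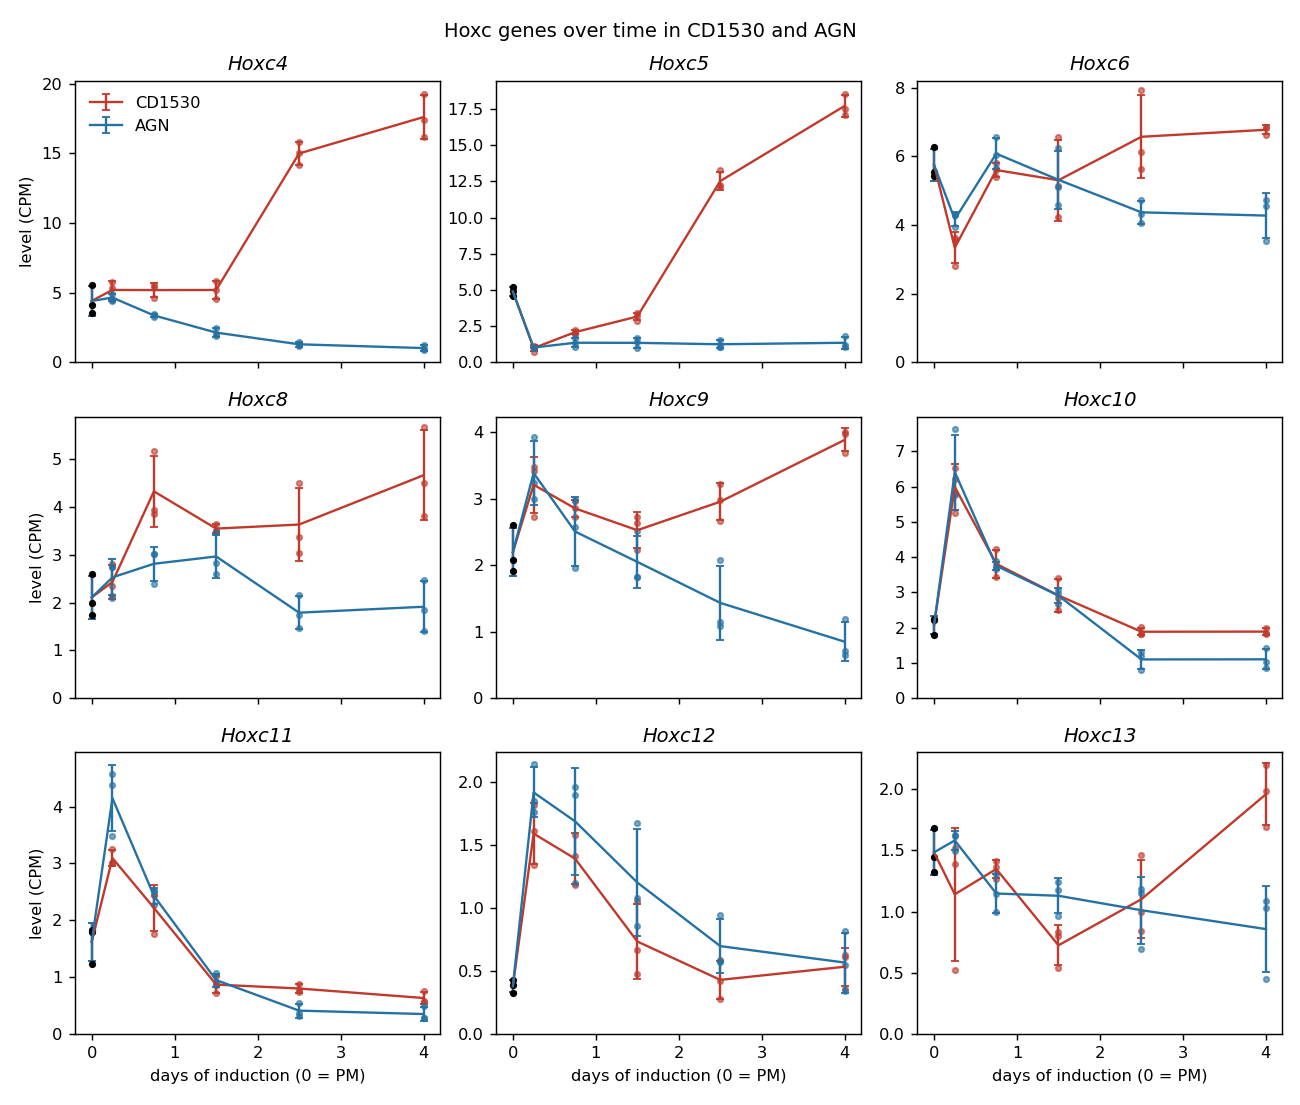
Levels of the 9 Hoxc genes in CPM (vertical axes, each from 0 with its own scale) against days of induction (horizontal axis, 0 is PM). Small points are single libraries (PM in black), and lines join group means with bars of ± 1 SD over 3 libraries for CD1530 (red) and AGN (blue); Hoxc4 and Hoxc5 climb steeply after D1.5 with CD1530, whereas Hoxc10, Hoxc11 and Hoxc12 peak at D0.25 with both ligands.

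Hoxc6, a gene of thoracic levels, had the narrowest relative span of group means of the 9 members, 2.03-fold, from 3.34 to 6.78 CPM. PM libraries were at 5.53, 6.29 and 5.44 CPM. Its lowest group means were both at D0.25, 3.34 ± 0.45 CPM in CD1530 (log2 fold change -0.84 ± 0.15 against PM, adjusted p = 5.29e-06) and 4.17 ± 0.20 CPM in AGN (-0.52 ± 0.15, adjusted p = 0.00210). At D0.75 it was at 5.60 ± 0.20 CPM in CD1530 and 6.08 ± 0.45 CPM in AGN, with log2 fold changes against PM of -0.08 and 0.05 that did not pass the test, and the rise from D0.25 was called with both ligands. Later the ligands separated modestly: at D4 the libraries were at 6.63, 6.86 and 6.84 CPM in CD1530 and at 4.57, 4.74 and 3.52 CPM in AGN. The log2 difference was 0.56 ± 0.14 at D2.5 (adjusted p = 0.00131) and 0.63 ± 0.15 at D4 (adjusted p = 0.000421). The rise in CD1530 at D4 against PM (0.35, adjusted p = 0.0192) was lost with scaling by library totals alone (0.23, adjusted p = 0.110) and without PM replicate 1 or 3, and the fall in AGN at D2.5 (-0.35, adjusted p = 0.0235) was lost without any 1 of 3 libraries (PM replicate 2, AGN D2.5 replicate 1 or 3).

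Hoxc8, which acts in the thoracic skeleton and brachial motor neurons, rose with CD1530 and not detectably with AGN. From 2.60, 1.99 and 1.74 CPM in PM it reached 5.19, 3.95 and 3.86 CPM with CD1530 at D0.75 (log2 fold change 0.98 ± 0.19, adjusted p = 2.23e-05) and 4.52, 5.68 and 3.81 CPM at D4 (1.25 ± 0.19, adjusted p = 2.16e-07). With AGN none of the 5 times passed the test against PM, with log2 fold changes from -0.24 to 0.44. The ligands differed at D0.75 (0.60 ± 0.19, adjusted p = 0.0187), D2.5 (1.04 ± 0.20, adjusted p = 6.31e-05) and D4 (1.25 ± 0.20, adjusted p = 1.70e-06), and not detectably at D1.5 (0.28 ± 0.19, adjusted p = 0.311). The D0.75 difference was lost without CD1530 D0.75 replicate 1, the highest library (0.46, adjusted p = 0.113), and without AGN D0.75 replicate 3 (0.51, adjusted p = 0.0959).

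Hoxc9, which represses more anterior programmes in the thoracic cord, differed most between the ligands at D4. PM libraries were at 2.60, 2.08 and 1.91 CPM, and group means at D0.25 were 3.21 ± 0.42 CPM in CD1530 and 3.38 ± 0.48 CPM in AGN. Those early rises were small, 0.48 ± 0.20 (adjusted p = 0.0320) and 0.57 ± 0.20 (adjusted p = 0.0115), and were lost without PM replicate 3, among other single libraries (0.39, adjusted p = 0.120, and 0.48, adjusted p = 0.0560). At D4 the libraries were at 4.00, 3.68 and 3.97 CPM in CD1530 and at 1.18, 0.708 and 0.650 CPM in AGN. Against PM this was a rise of 0.93 ± 0.20 (adjusted p = 4.00e-05) in CD1530 and a fall by 1.23 ± 0.26 (adjusted p = 6.06e-05) in AGN, and between ligands 2.16 ± 0.24 (adjusted p = 5.25e-10), the third largest difference of the cluster. At D2.5 the difference was 0.91 ± 0.21 (adjusted p = 0.000539), with AGN libraries at 2.07, 1.14 and 1.08 CPM; the highest of these was the deeply sequenced replicate 1, without which the difference was 1.38 (adjusted p = 1.37e-05).

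The 5′ genes Hoxc10, Hoxc11 and Hoxc12 pulsed early and alike in timing. Hoxc10, a lumbar gene, went from 1.78, 2.22 and 2.23 CPM in PM to 5.25, 6.52 and 6.20 CPM with CD1530 and 5.77, 7.64 and 5.83 CPM with AGN at D0.25. That was a rise of 1.47 ± 0.16 (adjusted p = 1.56e-10) and of 1.57 ± 0.16 (adjusted p = 2.71e-11). By D0.75 it had fallen from that peak with both ligands, to 3.81 ± 0.40 and 3.76 ± 0.12 CPM. At D4 it was back in the PM range with CD1530 (1.83, 2.00 and 1.83 CPM, log2 fold change -0.03 ± 0.20, adjusted p = 0.909) and below it with AGN (1.02, 1.42 and 0.867 CPM, -0.76 ± 0.22, adjusted p = 0.00208). The resulting ligand differences of 0.70 ± 0.21 at D2.5 (adjusted p = 0.00785) and 0.74 ± 0.23 at D4 (adjusted p = 0.00682) each missed the threshold without a single library, AGN D2.5 replicate 2 (0.54, adjusted p = 0.0524) and AGN D4 replicate 3 (0.59, adjusted p = 0.0559).

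Hoxc11, of lumbosacral levels, went from 1.83, 1.23 and 1.80 CPM in PM to 3.01, 3.01 and 3.26 CPM with CD1530 and 4.57, 4.38 and 3.49 CPM with AGN at D0.25. The rise was 0.88 ± 0.19 (adjusted p = 9.72e-05) and 1.31 ± 0.19 (adjusted p = 5.79e-08), and the AGN libraries were all above the CD1530 libraries, although the difference did not pass the test (-0.43 ± 0.17, adjusted p = 0.244). It was already below PM at D1.5 with both ligands, and at D4 it had fallen by 1.23 ± 0.26 with CD1530 (adjusted p = 3.49e-05) and by 2.04 ± 0.30 with AGN (adjusted p = 6.26e-08), with 5, 9 and 5 counts in the AGN libraries. The ligand difference was called at D2.5 (0.95 ± 0.31, adjusted p = 0.0134) but not at D4 (0.82 ± 0.36, adjusted p = 0.0735). The D2.5 call was lost without CD1530 D2.5 replicate 3 (0.88, adjusted p = 0.0534) or AGN D2.5 replicate 1 (0.85, adjusted p = 0.0800).

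Hoxc12, a sacral and tail gene, had the largest relative rise at D0.25 and no called difference between the ligands at any time. It was the only member under 1 CPM in PM, at 0.385, 0.425 and 0.327 CPM (8, 9 and 6 counts). At D0.25 it was at 1.82, 1.34 and 1.61 CPM with CD1530 (1.98 ± 0.34, adjusted p = 2.73e-06) and at 1.76, 2.14 and 1.84 CPM with AGN (2.26 ± 0.33, adjusted p = 1.34e-07). It was still above PM at D0.75, by 1.81 and 2.11, and at D4 its means were 0.532 ± 0.151 and 0.565 ± 0.238 CPM, with log2 fold changes against PM of 0.59 and 0.72 that did not pass the test. The calls at D1.5 with CD1530 and at D2.5 with AGN were each lost in 7 of the alternative analyses, among them those without any 1 of the 3 PM libraries. Between the ligands the log2 difference ran from -0.74 to -0.13 with SEs of 0.25 to 0.40, so at 5 to 42 counts per library a moderate difference could not have been resolved.

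Hoxc13, the last gene of the cluster, known for its role in hair and nail as well as the tail, followed none of these courses. PM libraries were at 1.44, 1.32 and 1.69 CPM. At D0.25 no change passed the test with either ligand, although CD1530 replicate 1 stood at 0.520 CPM beside 1.39 and 1.52 CPM in the others. With CD1530 it was lowest at D1.5 (0.834, 0.803 and 0.535 CPM, log2 fold change -1.06 ± 0.31, adjusted p = 0.00204) and highest at D4 (1.69, 2.20 and 1.98 CPM). With AGN no time passed the test, and the D4 libraries were at 0.451, 1.09 and 1.03 CPM. At D4 the ligands differed by 1.14 ± 0.29 (adjusted p = 0.00114).

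**Figure D2:**
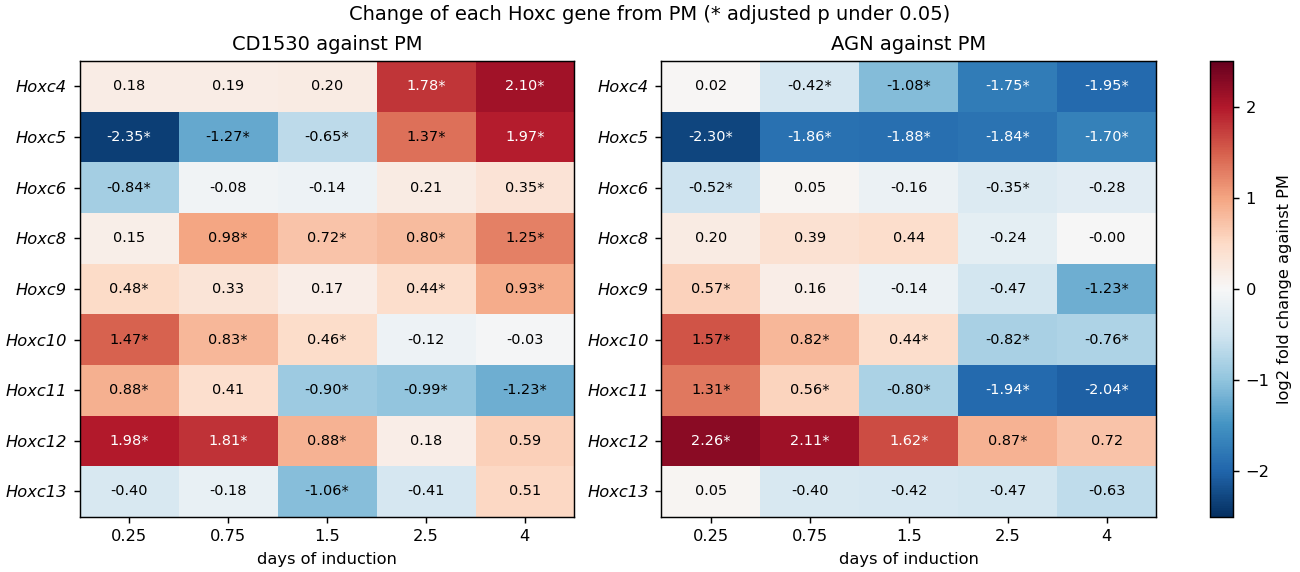
Log2 fold change of each Hoxc gene (rows, Hoxc4 at the 3′ end first) from PM at each day of induction (columns), with CD1530 on the left and AGN on the right; red is higher than PM, blue is lower, and an asterisk marks an adjusted p under 0.05. Hoxc10 and Hoxc12 are at 1.47 or more at D0.25 with both ligands, and Hoxc4 and Hoxc5 reach 2.10 and 1.97 at D4 with CD1530 against -1.95 and -1.70 with AGN.

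Onset along the cluster could not be followed from a silent state, since 8 of the 9 members were already at 1 CPM or more in PM. An onset was taken as the first time at which a gene was called higher than PM by at least 1 on the log2 scale with a mean of at least 1 CPM. With CD1530, 5 members had one: Hoxc10 and Hoxc12 at D0.25, Hoxc4 and Hoxc5 at D2.5, and Hoxc8 at D4. With AGN, 3 members had one, Hoxc10, Hoxc11 and Hoxc12, all at D0.25. Hoxc11 with CD1530 peaked at the same time but stayed under the fold required. Hoxc8 with CD1530 was called from D0.75 on, where its 0.98 fell just short of that fold. Over the alternative analyses this value ran from 0.84 to 1.16. The lowest was without CD1530 D0.75 replicate 1, the library that stood apart (adjusted p = 0.000281 by edgeR), and the highest without PM replicate 1. By this rule a value of 1 or more puts the onset of Hoxc8 at D0.75, before those of Hoxc4 and Hoxc5. For Hoxc5 the rule does not date the start of its rise, since the gene had first fallen below PM. From D0.25 to D0.75 with CD1530 Hoxc5 was called rising (1.08 ± 0.22, adjusted p = 6.48e-05), whereas Hoxc4 did not move detectably (0.01 ± 0.14, adjusted p = 0.957). With CD1530 the day of the highest mean was D4 for Hoxc4, Hoxc5, Hoxc6, Hoxc8, Hoxc9 and Hoxc13 and D0.25 for Hoxc10, Hoxc11 and Hoxc12. With AGN it fell at D0.25 for 6 members (Hoxc4 and Hoxc9 to Hoxc13), in PM for Hoxc5, at D0.75 for Hoxc6 and at D1.5 for Hoxc8. Some of these highest means did not pass the test against PM. With AGN they were those of Hoxc4 (0.02, adjusted p = 0.901), Hoxc13 (0.05, adjusted p = 0.883), Hoxc6 (0.05, adjusted p = 0.755) and Hoxc8 (0.44, adjusted p = 0.0583). With CD1530 it was that of Hoxc13 (0.51, adjusted p = 0.0623).

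Compared per length of exons, the members fell in the order of the cluster from Hoxc4 to Hoxc10 at D2.5 and D4 in CD1530, and in no other group. In CPM per kb at D4 the order was Hoxc4, Hoxc5, Hoxc6, Hoxc8, Hoxc9, Hoxc10, Hoxc13, Hoxc12 and Hoxc11, from 6.85 ± 0.61 for Hoxc4 and 5.73 ± 0.24 for Hoxc5 to 0.312 ± 0.053 for Hoxc11. Only Hoxc8 and Hoxc9, and Hoxc12 and Hoxc11, had overlapping libraries among the neighbours in that order. The same order held at D2.5. The lead of Hoxc4 over Hoxc5 at D4 rests on the exon lengths used, 2568 bases for Hoxc4 and 3089 for the long Hoxc5 model. In CPM without lengths their D4 libraries with CD1530 overlapped, with means of 17.6 for Hoxc4 and 17.7 for Hoxc5. At D2.5 every Hoxc4 library with CD1530 was above every Hoxc5 library in CPM as well. In PM the order per kb was Hoxc6, Hoxc4, Hoxc5, Hoxc10, Hoxc9, Hoxc11, Hoxc8, Hoxc13 and Hoxc12. In AGN at D4 Hoxc6 led at 1.78 ± 0.27 CPM per kb and 7 of the 8 neighbouring pairs overlapped. Summed over the 9 genes, the level was 10.2 ± 0.5 CPM per kb in PM, 12.6 ± 0.6 in CD1530 and 14.1 ± 1.1 in AGN at D0.25, and 21.3 ± 0.7 against 5.28 ± 0.12 at D4. Hoxc4 and Hoxc5 made up 32.3% ± 3.6 of that sum in PM, 59.2% ± 2.0 in CD1530 at D4 and 15.9% ± 4.1 in AGN at D4. The share of Hoxc10 to Hoxc13 was 28.1% ± 2.8 in PM. At D0.25 it was 53.0% ± 2.1 with CD1530 and 56.1% ± 2.0 with AGN, and at D4 it was 12.3% ± 0.4 and 31.0% ± 7.2.

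**Figure D3:**
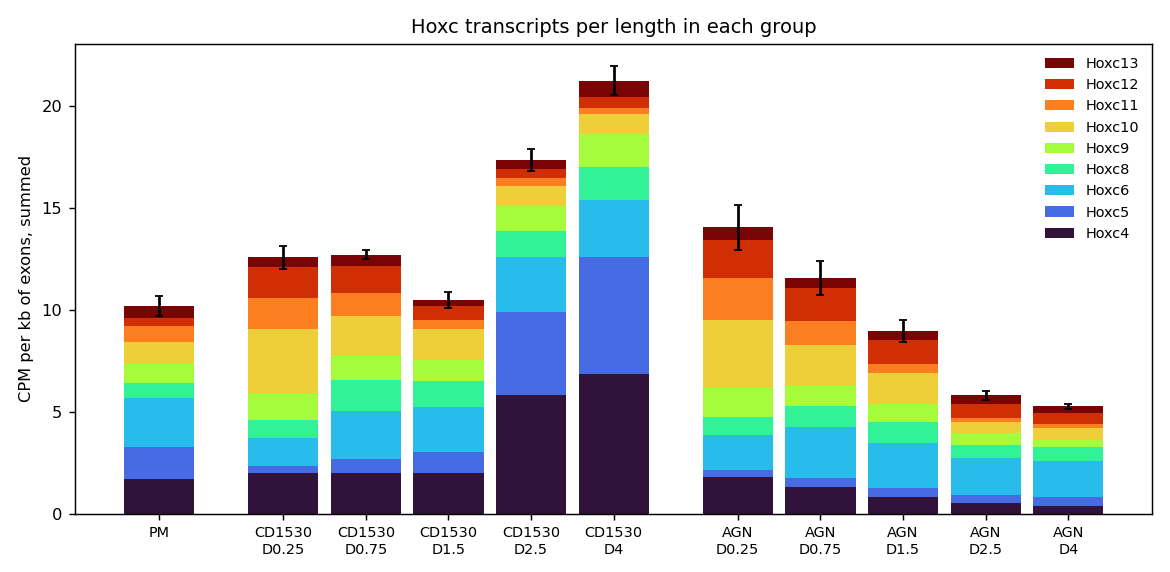
Stacked group means of the 9 Hoxc genes in CPM per kb of exons (vertical axis, from 0) in PM and at each time with CD1530 and AGN; bars are ± 1 SD of the sum over 3 libraries. The sum reaches 21.3 at D4 with CD1530, mostly from Hoxc4 and Hoxc5 at the bottom of the stack, and declines to 5.28 with AGN.

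Between the ligands, none of the 9 members was called at D0.25, when 1.92% of all genes were. By edgeR 2 members, Hoxc6 and Hoxc11, had an unadjusted p under 0.05 there, and DESeq2 also called none. At D0.75, 3 members were called, Hoxc4, Hoxc5 and Hoxc8, all higher in CD1530, beside 18.0% of all genes; without CD1530 D0.75 replicate 1 or without AGN D0.75 replicate 3 the count was 1. At D1.5, 2 members were called, Hoxc4 and Hoxc5, also higher, beside 26.9% of all genes. At D2.5 the 7 members from Hoxc4 to Hoxc11 were called higher, beside 40.0% of all genes in either direction. At D4, 7 members were called higher, all but Hoxc11 and Hoxc12, beside 46.6% of all genes, of which 22.7% of all genes were higher. The median log2 difference of the members was -0.10, 0.17, 0.02, 0.91 and 1.14 at the 5 times, and that of all genes was -0.02 at D4. No member was called lower in CD1530 at any time. The first day with a call did not run strictly along the cluster, being D0.75 for Hoxc4, Hoxc5 and Hoxc8, D2.5 for Hoxc6, Hoxc9, Hoxc10 and Hoxc11, and D4 for Hoxc13. In an interaction test of whether the ligand difference changed over the 5 times, 8 members passed, all but Hoxc12 (adjusted p = 0.694), beside 48.8% of all genes.

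**Figure D4:**
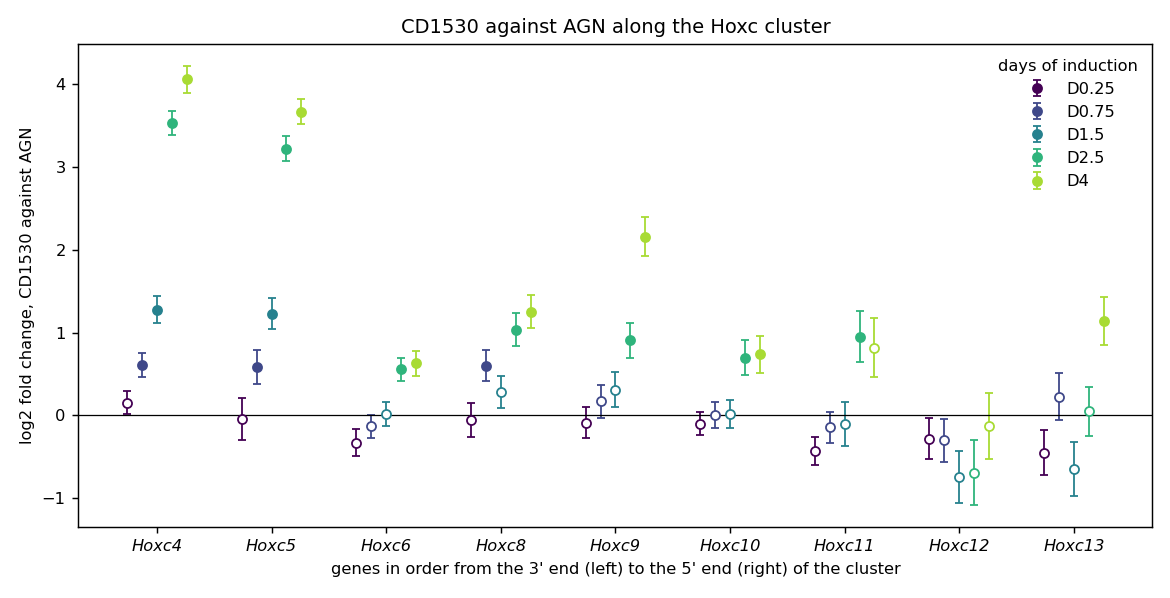
Log2 fold change of CD1530 against AGN (vertical axis) for each Hoxc gene, in order from the 3′ end (Hoxc4) to the 5′ end (Hoxc13), at the 5 times. Bars are ± 1 SE of the fit to 3 libraries a group, and open points did not reach an adjusted p under 0.05; Hoxc4 and Hoxc5 reach 4.05 and 3.66 at D4, Hoxc9 reaches 2.16, and Hoxc12 stays below 0 with no call.

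Against PM most genes of the table changed, and in none of these comparisons was the share of members called above that of all genes. At D0.25 the shares were close. The members had low counts, which limits calls, so these shares are not read as a result about the members. With CD1530, 6 members were called at D0.25 (Hoxc9 to Hoxc12 higher, Hoxc5 and Hoxc6 lower) beside 67.8% of all genes, 4 at D0.75 beside 71.9% (also 4 without CD1530 D0.75 replicate 1), 6 at D1.5 beside 74.1%, 5 at D2.5 beside 77.4% and 6 at D4 beside 83.2%. At D4 the 5 higher members were Hoxc4, Hoxc5, Hoxc6, Hoxc8 and Hoxc9, and Hoxc11 was lower. With AGN, 6 members were called at D0.25, the same as with CD1530 and in the same directions, beside 68.1% of all genes, the PM libraries being shared by both comparisons. There followed 5 at D0.75 beside 73.5% of all genes, 5 at D1.5 beside 71.5%, 6 at D2.5 beside 76.0% and 5 at D4 beside 82.0%. All 5 at D4 were lower: Hoxc4, Hoxc5, Hoxc9, Hoxc10 and Hoxc11. The D0.75 count with AGN was 3 without PM replicate 2.

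Between successive times with CD1530, 5 members were called from D0.25 to D0.75, beside 45.9% of all genes, with Hoxc5, Hoxc6 and Hoxc8 rising while Hoxc10 and Hoxc11 fell. From D0.75 to D1.5, 4 were called beside 34.2% of all genes, with Hoxc5 rising and Hoxc11, Hoxc12 and Hoxc13 falling. Without CD1530 D0.75 replicate 1 the first of these intervals again had 5 calls, and the next had 3, the fall of Hoxc13 (-0.89, adjusted p = 0.0218) becoming -0.86 (adjusted p = 0.0508). From D1.5 to D2.5, 3 were called beside 36.5%, Hoxc4 and Hoxc5 rising and Hoxc10 falling. From D2.5 to D4, 5 were called beside 57.3%, and Hoxc4, Hoxc5, Hoxc8, Hoxc9 and Hoxc13 all rose. With AGN the steps ran mostly downward. From D0.25 to D0.75, 4 were called beside 43.7% of all genes, Hoxc6 rising and Hoxc4, Hoxc10 and Hoxc11 falling. Hoxc4 and Hoxc11 fell from D0.75 to D1.5, 2 members beside 30.3%, and Hoxc4, Hoxc8, Hoxc10, Hoxc11 and Hoxc12 fell from D1.5 to D2.5, 5 members beside 42.1%. From D2.5 to D4 Hoxc9 fell, 1 member beside 59.4%.

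Other Hox genes of groups 4 to 13 were read from the same fit, 21 of 22 being in the table. At D4, 13 were called higher and 1 lower in CD1530 than in AGN, beside 22.7% and 24.0% of all genes. The median log2 difference of the 21 was 1.08, beside 1.14 for the Hoxc genes. The 21 included Hoxa and Hoxb genes of the same groups as Hoxc4 and Hoxc5. Of these, Hoxa5 was higher by 3.34 ± 0.09, Hoxb5 by 2.33 ± 0.09 and Hoxb4 by 0.85 ± 0.08. Hoxa4 libraries were at 11.1 to 12.8 CPM with CD1530 and 1.31 to 1.63 CPM with AGN at D4. Hoxb6, of the same group as Hoxc6, was higher by 3.07 ± 0.14. The lower gene was Hoxa13 (-1.93 ± 0.31, adjusted p = 1.23e-06), the group 13 gene of the Hoxa cluster, whereas Hoxc13 was higher. None of the 6 Hoxd genes, Hoxd8 to Hoxd13, was called at D4, with log2 differences from -0.26 to 0.04. Of the 8 genes that flank the Hoxc cluster, 3 were called at D4, beside 46.6% of all genes. Smug1 was higher (0.54 ± 0.09) and Atf7 (-0.51 ± 0.09) and Cbx5 (-0.41 ± 0.07) were lower. The smallest difference of a called Hoxc gene at D4, that of Hoxc6 (0.63 ± 0.15), was close to that of Smug1.

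Among 19 regulators of Hox transcription, 8 were called higher and 2 lower in CD1530 than in AGN at D4, beside 46.6% of all genes in either direction. Rarb, a receptor gene that retinoic acid itself activates, was at 0.0639 ± 0.0736 CPM in PM, 52.3 ± 3.3 CPM with CD1530 and 1.02 ± 0.44 CPM with AGN at D4, a log2 difference of 5.63 ± 0.14 (adjusted p = 8.15e-31). Cdx1, a caudal factor that activates Hox genes, was at 33.6 ± 1.3 CPM in PM and at 8.15 ± 0.88 CPM with CD1530 and 0.0723 ± 0.0828 CPM with AGN at D4 (6.66 ± 0.31, adjusted p = 1.14e-21). Both already differed at D0.25, by 2.04 for Rarb (adjusted p = 0.000111) and 0.80 for Cdx1 (adjusted p = 3.33e-05). In all, 3 of the 19 regulators were called then, beside 1.92% of all genes. No Hoxc gene was called at that time, although Hoxc6 and Hoxc11 had an unadjusted p under 0.05 by edgeR. At D4 the Polycomb genes Eed, Suz12, Bmi1 and Rnf2 were higher by 0.12, 0.12, 0.27 and 0.14, and Ezh2 did not pass the test (-0.05, adjusted p = 0.264). Rxra, which encodes an RXR partner of the RARs, was lower in CD1530, at 79.0 ± 1.1 CPM against 122.9 ± 4.9 CPM in AGN (-0.68 ± 0.04, adjusted p = 1.53e-16). The other lower gene was the caudal gene Cdx4 (adjusted p = 0.0154), at 0 in all CD1530 libraries and 0.0544 to 0.163 CPM in AGN, a level of very few counts. The part of these regulators in the Hoxc differences was not tested.

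The tendon factor Scx went from 6.45 CPM in PM to 797.5 CPM with CD1530 and 1108 CPM with AGN at D4, and the cartilage collagen Col2a1 from 11.02 to 135.2 and 2263 CPM. Neural genes, whose cells also use Hoxc4 and Hoxc5, also differed between the ligands at D2.5 and D4. Their sum over 7 markers was highest in PM, at 135.5 to 144.7 CPM, so it did not rise from PM with either ligand. The summed level of 7 neural markers was 82.8 to 88.1 CPM in CD1530 and 33.6 to 36.7 CPM in AGN at D4, and 6 of the 7 had the higher mean in CD1530, among them Sox1 (14.9 against 0.332 CPM), Pax6 (9.71 against 0.329 CPM) and Neurog2 (2.46 CPM against 0 in all AGN libraries), Stmn2 being the exception. At D2.5 the sums were 125.1 to 130.3 and 71.0 to 80.2 CPM. At D0.75, when Hoxc4 was already called higher in CD1530, the sums were 76.0 to 88.4 CPM in CD1530 and 86.7 to 90.8 CPM in AGN. Of the 7 markers 1 was called then, beside 18.0% of all genes: Stmn2, lower in CD1530 (-0.43, adjusted p = 4.86e-07). At D1.5 the sums were 108.2 to 115.8 and 102.1 to 110.1 CPM and overlapped, but single markers had already separated. Of the 7, 3 were called higher in CD1530 and 1 lower at D1.5, beside 26.9% of all genes. Sox1 was at 5.29 ± 0.42 against 2.20 ± 0.58 CPM (1.29 ± 0.19, adjusted p = 5.88e-07), Pax6 at 7.65 ± 0.95 against 3.08 ± 0.46 CPM (1.31 ± 0.15, adjusted p = 5.82e-09), Tubb3 was higher by 0.30 and Stmn2 lower by 0.43. The 6 tailbud markers were all called at D4, 4 lower and 2 higher in CD1530, beside 46.6% of all genes. Their sums were 60.1 to 63.6 CPM in CD1530 and 95.9 to 99.3 CPM in AGN. Among them T, the mesoderm factor Brachyury, was at 0.468 ± 0.130 against 24.6 ± 0.4 CPM, and Wnt3a was higher, at 0.752 against 0.0731 CPM. The part of neural and tailbud cells in the Hoxc differences was not tested.

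Over the 11 group means, likeness of course was measured by Pearson's r of log2(CPM + 1), given as a description, since the means share PM and the libraries of a time. Within the cluster the closest pairs were Hoxc10 with Hoxc11 (r = 0.93), Hoxc10 with Hoxc12 (r = 0.85), Hoxc4 with Hoxc9 (r = 0.83) and Hoxc4 with Hoxc5 (r = 0.83), and the most opposed were Hoxc5 and Hoxc12 (r = -0.67). Across the table, the 3 genes most like Hoxc4 were Gkap1 (r = 0.97), Zswim5 (r = 0.96) and Irx2 (r = 0.95). Those most like Hoxc5 were its Hoxb relatives Hoxb8 (r = 0.99) and Hoxb7 (r = 0.97), then Caskin1 (r = 0.97). Hoxc8 was most like Polb (r = 0.98), Hoxc9 most like C1galt1 (r = 0.97), Hoxc10 most like Nipsnap3b (r = 0.98), Hoxc11 most like Arid3a (r = 0.97) and Hoxc12 most like F5 (r = 0.98) and Lhx1 (r = 0.98). Hoxc6 and Hoxc13 had no close match, their best being Spg7 (r = 0.86) and Nipal2 (r = 0.86).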

How the data were processed

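RNA was sequenced in 33 libraries. Per the labels, reads were aligned with STAR and assigned to genes with featureCounts, and edgeR was used by the authors; versions are not printed here. The values deposited by the authors are raw counts, from a table filtered on low values: every gene had at least 0.611 CPM in its third-highest library. The annotation release and strand setting are not given in the sources used here. Of the gene identifiers, 17117 matched GENCODE M21.

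The counts of all libraries entered 1 fit in edgeR 4.0.16 (R 4.3.3), with TMM scaling, 11 group means and the robust quasi-likelihood test, which gave 24 tests with Benjamini-Hochberg adjustment over 17120 genes in each. The edgeR filter removed 0 genes. The script was tested on simulated data. CPM levels used library totals of 17116084 to 38120841 counts, and exon lengths came from GENCODE M21. DESeq2 1.42.0 was an alternative. Replicates of a group were not copies of each other, since their pairs had a chi-square of 1.59 to 21.9 per gene. The members, lists and rules were chosen with earlier results of these data known. The named genes were the 9 members, genes of the lists where a sentence turns on them, and for each member the 3 most correlated genes whose average count was 10 or more. The homeobox sequence of Hoxc5 is not reported here.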

Additional observations from a re-analysis of the deposited data

Results flagged for a closer look

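For 8 of the 9 Hoxc genes the difference between CD1530 and AGN changed over the 5 times, by edgeR's test of the interaction of ligand and time. The adjusted p was 1.88e-19 for Hoxc4, 2.85e-15 for Hoxc5, 0.000273 for Hoxc6, 0.00106 for Hoxc8, 8.28e-07 for Hoxc9, 0.0114 for Hoxc10, 0.00437 for Hoxc11 and 0.00357 for Hoxc13, beside a call in 48.8% of all genes. For Hoxc4 the log2 difference moved from 0.15 at D0.25 to 4.05 at D4, and for Hoxc5 from -0.05 to 3.66. For Hoxc11 and Hoxc13 it moved from -0.43 to 0.82 and from -0.45 to 1.14.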

How the results depend on the processing

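Of 73 calls of single members between ligands or against PM, 57 held under every alternative that kept the rule for a call, 16 were lost under at least 1, and 0 changed direction. In addition to a call, a log2 fold change of at least 1 left 0 members between the ligands at D0.75 and 3 at D2.5, with CD1530 against PM 3 at D0.25, 2 at D0.75, 1 at D1.5 and 2 at D2.5, and with AGN against PM 2 at D0.75, 3 at D1.5 and 3 at D2.5. Fitting only the compared libraries left 1 at D0.75 between the ligands. The shares of all genes under that stricter rule, and under the other alternatives of this paragraph, are not given here, so these counts describe the members alone. Leaving out 1 library gave 0 to 0, 1 to 3, 2 to 3, 6 to 7 and 6 to 8 members between the ligands from D0.25 to D4, 5 to 6, 4 to 5, 4 to 6, 4 to 5 and 5 to 7 for CD1530 against PM, 5 to 6, 3 to 6, 4 to 6, 5 to 7 and 5 to 7 for AGN against PM, and 8 to 8 for the interaction; when 1 library of a group was left out, the other 2 remained. The call of Hoxc9 with CD1530 at D2.5 against PM (0.44, adjusted p = 0.0499 by edgeR) was lost in 10 of 14 alternatives, with an adjusted p of 0.0249 to 0.163 over them, and those of Hoxc10 at D1.5 against PM were lost in 4 of 14 for each ligand. With the replicate number as a block, 7 members in place of 6 were called with AGN at D2.5 and 6 in place of 5 at D4 against PM, and the counts of the other comparisons did not move. The replicate numbers did not pair libraries. Of 165 pairs of libraries from different groups with the same number, 2 had deviations correlated over 0.1 (median r = 0.00055). Among 330 such pairs with different numbers 7 did (median r = -0.0013). With an on level of 2 CPM, 4 members had an onset with CD1530 and 2 with AGN, and 6 were on in PM. Scaling by library totals moved the median of all genes by -0.15 in AGN at D4 against PM. Depth limits Hoxc11, Hoxc12 and Hoxc13 most, with means of 32.5, 20.8 and 25.1 counts per library.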
